A study of Caenorhabditis elegans with 2 samples.

Results

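The body-shape cuticle collagens of Caenorhabditis elegans are genes first found as mutants with dumpy (dpy), squat (sqt), roller (rol), blistered (bli) or long (lon) bodies, whose products were later shown to be collagens of the exoskeleton. The 10 genes considered were dpy-5, dpy-7, dpy-10, dpy-13, sqt-1, sqt-3, rol-6, bli-1, bli-2 and lon-3. Members were the array's probe sets that the platform annotation ties to exactly 1 gene symbol from this list. That gave 11 probe sets for 9 genes, of 20766 singly named probe sets for 17118 genes, and no probe set was named for dpy-10. The rule for members used no measured value, but the list was chosen with earlier results of these data known. All 9 genes kept their symbol when looked up by Entrez identifier in RefSeq.

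RNA came from whole N2 hermaphrodites, the laboratory wild type, which per the labels had reached the fourth larval stage (L4). The pOPC7 worms grew on nematode growth medium with 2 µg/mL of pOPC7, which is an oligomeric proanthocyanidin, a trimer with gallate, from grape seeds (Vitis vinifera). The control worms grew on the same medium without it. In both groups the parents were kept at 20 °C on Escherichia coli OP50, synchronous L1 larvae were obtained by bleaching, and growth lasted 48 h. The study compared the transcriptomes of these cultures in work on lipids. Each group was 1 array. Values therefore carry no replicate error and no p-value, and precision is limited by the number of arrays.

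The cuticle is a collagen-rich matrix secreted by the epidermis and rebuilt at every larval moult. Cuticle collagens are short proteins with interrupted Gly-X-Y repeats. They fold as trimers in the endoplasmic reticulum, are trimmed by proteases, and are cross-linked outside the cell. Their messenger RNAs rise and fall within each larval stage, with furrow collagens such as DPY-7 made earlier in the cycle than most others. The L4 epidermis builds the adult cuticle, which holds the struts that contain BLI-1 and BLI-2.

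No body-shape collagen differed by 1.5-fold between the arrays. Of the 9 genes, 0 were higher and 0 lower by 1.5-fold with pOPC7, where 0.732% of the 8059 measured genes were higher and 0.211% lower. At 2-fold the members' counts were likewise 0, beside 0.0248% of measured genes higher and 0 lower. Measured means a mean over both arrays of at least 6 on the log2 scale, and all 9 members reached it. The largest difference among them belonged to rol-6, at 0.45 log2 units or 1.36-fold. Differences are pOPC7 minus control of the deposited log2 values throughout. The members' median difference was 0.19, against 0.04 over all measured genes, and 7 of 9 were above 0, where 57.8% of measured genes were. The members' mean difference was 0.12, against 0.04 over all measured genes.

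Most members gave strong signals, and genes with strong signals differed less. A mean of 9 or more was reached by 8 members, and the 1667 measured genes at such levels had a median difference of 0.00 with 49.4% above 0. At a threshold of 1.2-fold, 3 members were higher (rol-6, bli-2 and lon-3) and 0 lower, beside 11.6% and 6.06% of all measured genes. Probe sets of the same gene disagreed by an amount that corresponds to a robust SD of 0.21 for a single probe set, estimated from 1721 genes. This SD comes from within the same arrays and holds no variation between cultures. The values of the 3 members at 1.2-fold lay above it as deposited, and that of lon-3 did not with a trend along probe set number removed (0.20). Each of the 3 rested on 1 probe set, so none was measured a second time. The 2 members below 0, bli-1 and sqt-3, were means of 2 probe sets, the lower of which read -0.40 and -0.25.

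**Figure D1:**
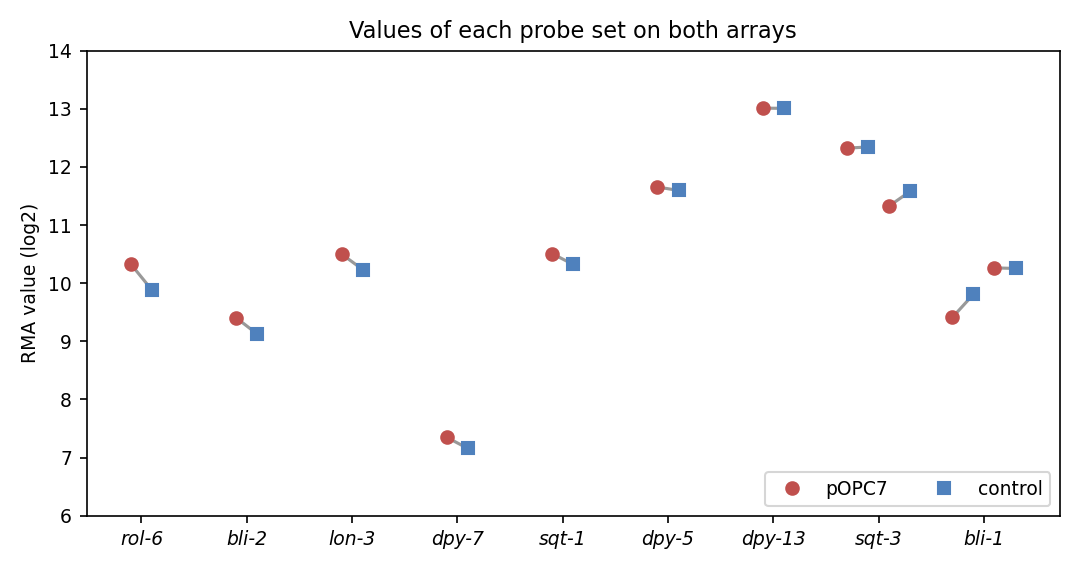
RMA value (log2) of each probe set of the 9 genes, with the pOPC7 array as red circles left of the control array as blue squares and a line joining the pair; genes run from the highest to the lowest difference. Heights of different probe sets cannot be compared, and only the slope of each line carries the comparison, which was steepest for rol-6 (10.33 with pOPC7, 9.88 in the control).

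rol-6 and sqt-1 encode collagens whose mutants interact genetically, and particular alleles of either gene make worms twist and roll. rol-6 had a value of 10.33 with pOPC7 and 9.88 in the control, a difference of 0.45. Only 2.07% of all measured genes had a higher difference. Of the 536 measured genes within 0.5 log2 units of its level, 1.49% differed by as much in either direction. Among 113 measured collagens named col, dpy, sqt, rol, bli or lon in the lists used here, it ranked 1 from the top. Among the same collagens col-12 lay nearly as far from 0 in the other direction (-0.44). The probe set of rol-6 carries no suffix for matches to several transcripts.

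The sqt-1 value was 10.51 with pOPC7 and 10.32 in the control, a difference of 0.19. Of 438 genes of like level, 18.9% differed by as much. Both genes of this pair lay above 0, and the difference of sqt-1 was smaller than the single probe set SD. Its only probe set has the suffix _s_at, which marks a match to several transcripts.

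sqt-3 encodes a collagen cleaved by the astacin protease DPY-31. The gene averaged 11.83 with pOPC7 and 11.96 in the control, a difference of -0.14. Its probe sets read 12.32 with pOPC7 against 12.34 in the control (difference -0.02, suffix _x_at, which marks possible cross-hybridisation) and 11.33 against 11.58 (difference -0.25). Both were below 0, and the _x_at one barely differed between the arrays.

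bli-1 and bli-2 encode collagens of the adult cuticle's struts, without which the layers separate and fill with fluid. For bli-2 the value was 9.41 with pOPC7 and 9.12 in the control, a difference of 0.28 or 1.22-fold, and 8.11% of 1073 genes of like level differed by as much. For bli-1 the mean over probe sets was 9.84 with pOPC7 and 10.03 in the control, a difference of -0.19. The strut pair had opposite signs, but the sign of bli-1 rested on 1 of its 2 probe sets. That probe set, of the _s_at kind, read 9.41 with pOPC7 and 9.81 in the control (-0.40). The other, brighter probe set of bli-1 read 10.26 with pOPC7 and 10.25 in the control, a difference of 0.01.

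lon-3 encodes a collagen whose loss lengthens the worm and which is tied to body-size signalling through the BMP-like ligand DBL-1. Its value was 10.50 with pOPC7 and 10.24 in the control, a difference of 0.27. Of 457 genes of like level, 7.88% differed by as much. It was close to bli-2 in size of difference, and like bli-2 it has a single probe set without a suffix.

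Among the dumpy collagens, dpy-7 encodes a component of the annular furrows. Its value was 7.35 with pOPC7 and 7.16 in the control, a difference of 0.19. Of the 2481 genes of like level, 35.4% differed by as much, so a difference of this size was common at its level. dpy-5 encodes a procollagen processed by the convertase BLI-4, and dpy-13 a collagen of the ridges between furrows. dpy-5 read 11.66 with pOPC7 and 11.60 in the control (0.06).

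dpy-13 read 13.01 on both arrays, with a difference of 0.00 that was -0.03 after centring on the median and 0.05 with a level trend removed. Its signal lay near the upper end of the deposited values, which reach 13.90. The probe sets of dpy-5 and dpy-7 are of the _s_at kind and that of dpy-13 of the _x_at kind. With sqt-1, 4 of the 9 genes therefore had no probe set free of such a suffix.

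**Figure D2:**
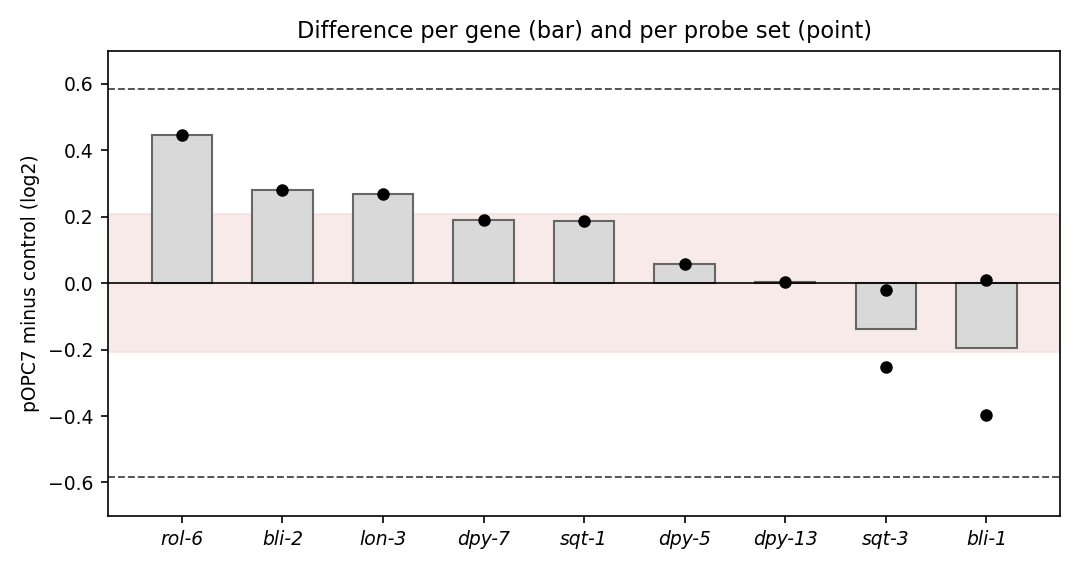
Difference (pOPC7 minus control, log2) of each gene as a bar and of each probe set as a point, with the robust SD of a single probe set (0.21) shaded around 0 and 1.5-fold as dashed lines. The bars of rol-6, bli-2 and lon-3 lie above the shaded band, and 1 point each of bli-1 (-0.40) and sqt-3 (-0.25) lies below it. No bar reaches a dashed line, and the points of bli-1 (-0.40 and 0.01) lie farthest apart.

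Other collagens of the cuticle, further body-shape collagens among them, had medians closer to 0 than the members' 0.19. The members' median therefore holds for the genes listed and not for body-shape collagens at large. Of 10 further body-shape collagens, 7 were measured, 4 lay above 0, none reached 1.5-fold, and the median was 0.03. dpy-2, a furrow collagen gene, had the largest difference (0.22), but its probe sets read 0.40 and 0.05. rol-8 had -0.12, the furrow gene dpy-3 -0.09 and dpy-4 0.07. The 5 measured furrow collagens, dpy-7 included, had a median of 0.03 and ran from -0.09 (dpy-3) to 0.22 (dpy-2). The medians of these furrow collagens and of the further body-shape collagens were both -0.01 after centring on the median of all measured genes, -0.03 with the level trend removed and -0.02 with a trend along probe set number removed, so they lay on either side of 0 depending on the scaling. The 97 measured collagens that carry a col number had a median of 0.02, beside 0.04 over all measured genes, and 52 of them lay above 0. They include col-99, which is also in the list of collagens outside the cuticle below. None of the 97 had a difference above that of rol-6, and 3 had one above those of bli-2 and lon-3. In the other direction col-12 went nearly as far as rol-6. It read 11.76 with pOPC7 and 12.20 in the control (-0.44), on 1 probe set of the _x_at kind. No test compared these lists with the members.

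**Figure D3:**
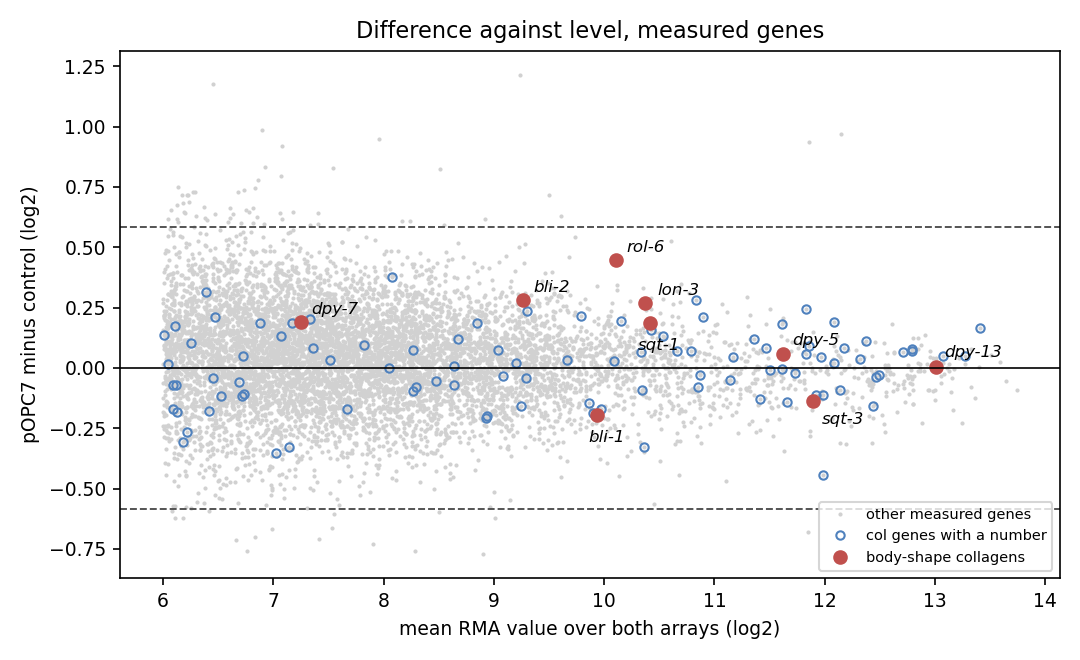
Difference (pOPC7 minus control, log2) against the mean of both arrays (log2) for the 8059 measured genes, with body-shape collagens as filled red circles, numbered col genes as open blue circles and 1.5-fold as dashed lines. The spread narrows with level, rol-6 (0.45) lies above the col genes, and the members other than dpy-7 lie at 9 or more.

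Enzymes that fold and hydroxylate collagen lay mostly below 0. Of 12 measured genes, 3 were above 0, none reached 1.5-fold, and the median was -0.04, beside the members' 0.19. Prolyl 4-hydroxylase, which stabilises the collagen helix, is built from DPY-18 or PHY-2 with PDI-2. pdi-2 read 10.09 with pOPC7 and 10.26 in the control (-0.17), and both its probe sets were below 0 (-0.22 and -0.12). dpy-18 differed by -0.04 as a mean of 3 probe sets that ran from -0.26 to 0.26. The peptidyl-prolyl isomerase genes fkb-4 (0.28) and fkb-3 (-0.22) had opposite signs, and the thioredoxin-like gene dpy-11 had -0.13.

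Of the genes for cleavage and cross-linking, 5 of 11 were measured, with a median of 0.09 and none at 1.5-fold. bli-4, the convertase gene that acts on procollagens such as DPY-5, differed by -0.06 over 9 probe sets ranging from -0.41 to 0.23. The protease gene dpy-31, whose product cleaves SQT-3, had a mean of 5.99, just under the measured level, and read 6.08 with pOPC7 and 5.91 in the control. Its brightest probe set read 8.20 with pOPC7 and 8.23 in the control (-0.03), and the dimmer ones differed by 0.00 and 0.55. The dual oxidase gene bli-3, needed for tyrosine cross-links, was also under the measured level, at 5.92 with pOPC7 and 5.94 in the control. Among measured genes, the peroxidase gene skpo-1 had -0.30, the ADAMTS protease gene adt-2 0.24, the protease inhibitor gene bli-5 0.20 and the oxidase maturation gene doxa-1 0.09.

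The body-size pathway through which DBL-1 acts on body length had 5 of 12 genes measured. All 5 lay above 0, where 57.8% of measured genes did, their median was 0.11, and 1.5-fold was reached by none. The smallest difference, 0.02 for sma-10, was under the median of 0.04 over all measured genes. With no limit on level the 11 genes on the array had a median of 0.07. daf-4, the type II receptor gene, read 6.22 with pOPC7 and 5.85 in the control (0.37, with 0.33 and 0.42 in its probe sets). The co-Smad gene sma-4 had 0.34, the secreted regulator gene lon-1 0.11 and the Schnurri homologue gene sma-9 0.08. These stand beside the 0.27 of lon-3. Below the measured level, the ligand gene dbl-1 read 4.34 with pOPC7 and 4.51 in the control (-0.17). Its probe sets had opposite signs, -0.51 in the dimmer and 0.16 in the brighter. The other genes below that level went both ways. The Smad gene sma-3 (-0.20) and the receptor gene sma-6 (-0.15) lay below 0, and sma-2 (0.16), drag-1 (0.07) and lon-2 (0.01) above it. These other genes were named after their values were seen.

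Regulators of the epidermis and the moult had 10 measured of 14 genes on the array, 4 above 0, none at 1.5-fold and a median of -0.01. nhr-23, an ROR-family receptor gene of the moulting cycle, read 6.72 with pOPC7 and 6.23 in the control, a difference of 0.50. Its probe sets gave 0.59 and 0.40, both above 0. The zinc finger gene bed-3, required for moulting, had 0.32. lin-26, an epidermal fate gene, had -0.32, the GATA factor genes elt-1 and elt-3 -0.25 and 0.15, and blmp-1 -0.15 with probe sets of opposite sign (-0.38 and 0.08). The part of moult timing in the members' values was not tested.

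Loss of furrow collagens such as DPY-7 and DPY-10 is known to switch on osmolyte and antimicrobial genes. In a list of 12 such damage-response genes 10 were measured, 3 lay above 0, none reached 1.5-fold and the median was -0.03. gpdh-1, which makes glycerol, read 8.68 with pOPC7 and 9.26 in the control, a difference of -0.58 that fell short of 1.5-fold as deposited and passed it after centring (-0.61), with the level trend removed (-0.60) and with a trend along probe set number removed (-0.64). The peptide gene cnc-2 had 0.56, the inositol transporter gene hmit-1.1 0.31, and the peptide genes nlp-30 and nlp-29 -0.26 and -0.04. Each of these 3 peptide genes rested on 1 probe set of the _x_at kind. The list's extremes ran both ways, and the furrow gene dpy-7 differed by 0.19.

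Collagens outside the cuticle were set beside the members. Of 5 genes 4 were measured, with a median of 0.08. mec-5, a collagen gene of the touch receptor matrix, read 6.77 with pOPC7 and 6.38 in the control, a difference of 0.39 shared by all 3 probe sets (0.36 to 0.43). The basement membrane gene emb-9 had -0.22, with -0.28 and -0.16 in its probe sets, let-2 0.03 and col-99 0.14.

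**Figure D4:**
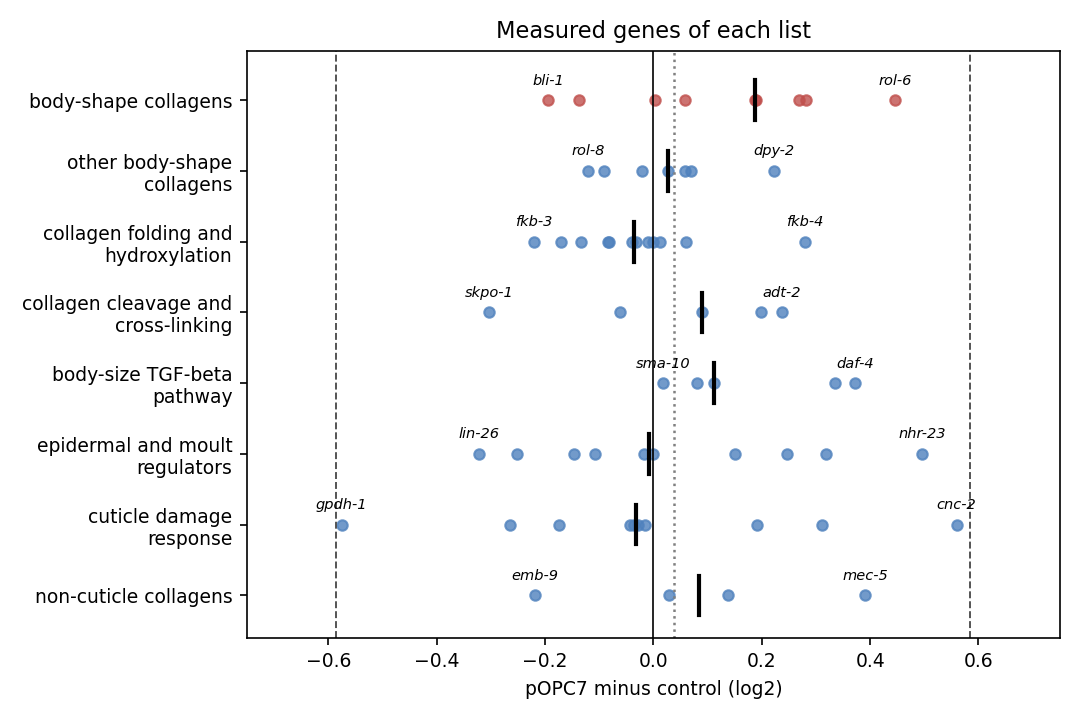
Difference (pOPC7 minus control, log2) of every measured gene of each list as a point, with the list's median as a black bar, the median of all measured genes (0.04) as a dotted line and 1.5-fold as dashed lines; the lowest and highest gene of each list are named. The median of the body-shape collagens (0.19) lies farthest right of those drawn, and no gene crosses a dashed line. By mean, which is not drawn, the body-size pathway (0.18) lay above the body-shape collagens (0.12).

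In whole animals, a change in the number of epidermal cells and a change in RNA per cell cannot be told apart. Epidermal markers were present, with 7 measured of 9 on the array, a median difference of 0.06 and a range of -0.32 (lin-26) to 0.36 (grd-10). The epidermal median was 0.15 with no limit on level or with each gene's brightest probe set, and 0.02 after centring. Muscle, intestine and neuron markers had medians of -0.02, 0.01 and 0.06, and sperm and oocyte markers -0.10 and -0.15. Adult-stage genes had -0.03, among them the adult collagen gene col-19 at -0.08. Of the 6 measured adult-stage genes 3 lay above 0. They ran from -0.39 (vit-1) to 0.07 (vit-6), with a mean of -0.10. The part of these differences in the members' values was not tested. Adult-stage genes gave strong signals on both arrays, with vit-2 at 11.73 with pOPC7 and 11.99 in the control. col-19 read 10.81 with pOPC7 and 10.89 in the control. The L4 stage is taken from the labels, and the stage of the worms was not tested. Over all probe sets the arrays' medians were 5.99 with pOPC7 and 5.94 in the control, and the differences of measured genes had an SD of 0.20.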

How the data were processed

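The deposited table holds log2 values of 22625 probe sets on 2 arrays, made by the authors with RMA, per the submitters' processing notes. RMA subtracts background, quantile-normalises probe intensities and merges each set's probes into 1 value by median polish. Which software and version ran it is not given in the sources used here, nor whether a column averages several hybridisations. The log2 scale was read from the values (1.78 to 13.90). Total RNA (200 ng) was amplified and labelled with biotin, per the labels' protocols.

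Probe sets with 1 gene symbol were averaged per gene, and genes with a mean of at least 6 (8059 of 17118) were called measured. The members and gene lists were chosen with earlier results of these data known. Genes named were the members, up to 4 measured genes per list with the largest absolute difference, and 12 further fixed names. Genes neighbouring a member, and sma-2, sma-3, sma-6, sma-10, drag-1 and lon-2, were named in addition. Genes of like level lay within 0.5 log2 units. Settings varied were the limit on level, the scaling, the choice of probe sets and the threshold. The code was tested on simulated data. Python 3.11.15, pandas 2.3.3, numpy 2.4.6, statsmodels 0.14.6 (loess span 0.3) and matplotlib 3.10.9 were used. The order of genes in RefSeq's WBcel235 table was used to find neighbours. Sequences were not used here.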

Additional observations from a re-analysis of the deposited data

How the results depend on the processing

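The count of members past 1.5-fold stayed at 0 in each direction under every other limit on level, scaling and choice of probe sets, and at 2-fold, while 3 were higher at 1.2-fold. The count of members above 0, 7 of 9 as deposited, was 6 after centring and 8 with each gene's brightest probe set. The members' median ranged from 0.12 (trend along probe set number removed) to 0.27 (without probe sets marked for several transcripts). Without such probe sets 5 members were left, of which 4 lay above 0, and bli-1 differed by 0.01, as it did with its brightest probe set alone. In settings chosen after seeing the data, the median was 0.12 without rol-6 and 0.19 without bli-1. rol-6 ranged from 0.39 to 0.45, bli-2 from 0.21 to 0.28 and lon-3 from 0.20 to 0.27, so bli-2 and lon-3 did not stay at 1.2-fold throughout.

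For other lists, these medians moved by at least the single probe set SD divided by the square root of the number of genes, and the cause was not tested. With a mean of at least 5, sperm markers had 0.024. With a mean of at least 7 they had 0.024, non-cuticle collagens -0.095 and neuron markers -0.12. With no limit, epidermal markers had 0.15, sperm markers -0.0090 and numbered collagens 0.041. Numbered collagens had -0.017 after centring and -0.035 with the trend along probe set number removed. With brightest probe sets, epidermal markers had 0.15 and neuron markers -0.047. Without probe sets marked for several transcripts, folding and hydroxylation had -0.22, the body-size pathway 0.22, sperm markers -0.26 and adult genes -0.17. Smaller moves also changed the sign of medians near 0. Other body-shape collagens had -0.010 after centring, -0.027 with the level trend removed, -0.020 with the trend along probe set number removed and -0.021 with no limit, and furrow collagens had the first 3 of these values. Intestine markers had -0.032 after centring, -0.061 with the trend along probe set number removed and a mean of -0.012. With the level trend removed, neuron markers had -0.013 and muscle markers 0.00. Epidermal and moult regulators had 0.00 with a mean of at least 5, 0.021 with a mean of at least 7, 0.0089 with no limit, 0.041 with brightest probe sets and a mean of 0.037. No paired analysis was possible because each group is 1 array, which also made leaving out a replicate impossible.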

Other observations

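Several members lie next to genes that the array also measured, by gene order in the RefSeq table of WBcel235. bli-1 (-0.19) neighbours col-80, a collagen gene with a difference of 0.28, and C09G5.7 (-0.24). dpy-13 (0.00) neighbours col-34 (0.07). rol-6 (0.45) neighbours idpb-4 (0.18), and lon-3 (0.27) neighbours vab-8 (0.15). sqt-3 (-0.14) lies between F23H12.3 (-0.15) and F23H12.5 (0.49). dpy-10, for which no probe set was named, neighbours rpy-1 (0.22) and T14B4.19 (-0.04). These genes were chosen for their place and are given as values only.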
